A study of Mus musculus with 4 samples.

Results

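Aldehyde and carbonyl metabolizing enzymes were taken as all genes whose symbol in the array annotation begins with Aldh (aldehyde dehydrogenases), Akr1 (aldo-keto reductases), Cbr and a digit (carbonyl reductases) or Aox and a digit (aldehyde oxidases). The rule found 41 genes among the 18194 genes with a probe set named for them alone: 20 Aldh, 14 Akr1, 4 Cbr and 3 Aox genes. Of these, 28 were analysed, among 12264 genes in all, because their level reached 3.63 (log2), the median of every probe set over the 4 arrays, in at least 1 group. The other 13 lay at or next to the lowest value in the table, the floor of 3.32 on the log2 scale, which is a linear level of 10. The related mouse genes Akr1b3, Akr1b7, Aldh3b3 and Aox2 had no probe set named for them alone and were not analysed here.

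The cells were Comma D beta, a mouse mammary epithelial line, and the labels do not say what doxycycline (dox) switches in them. The groups were untreated Sca1+ cells, untreated Sca1- cells, Sca1+ cells after dox at 100 ng/ml for 1 day and Sca1- cells after the same treatment. All of them had been grown in medium with 2% serum, 5 ug/ml insulin and 10 ng/ml of EGF, and Sca1, a surface marker used to enrich progenitor cells, was the only sorting marker named. Each group is 1 Affymetrix array of sorted cells, so no difference has a replicate check, the number of arrays limits the precision, and a difference is described by its size: 2-fold or more is an absolute log2 difference of 1 or more.

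Bcl11b, the transcription factor named in the series title, read 6.87 and 6.29 (log2) in untreated Sca1+ and Sca1- cells and 12.11 and 11.99 with dox. The gene for Sca1 itself had no named probe set and its level was not analysed here. Among markers of the labelled cell type, the basal keratin gene Krt14 lay between 11.54 and 11.92 and the epithelial gene Epcam between 10.28 and 11.69 on all arrays, the latter 2.06-fold lower with dox in Sca1+ cells. Some other markers of the line were much lower with dox. The basal keratin gene Krt5 read 11.46 and 10.77 in untreated Sca1+ and Sca1- cells and 7.47 and 7.63 with dox. It was thus 15.9-fold and 8.76-fold lower. Acta2, the smooth muscle actin of myoepithelial cells, was 7.30-fold and 8.55-fold lower. Not all markers fell in this way. Of the basal ones, Trp63 differed by -0.43 and -0.15 (log2) in Sca1+ and Sca1- cells, and Krt17 by -1.11 and -0.10. Of the luminal ones, Krt18 differed by 0.07 and -0.79, and Gata3 was 2.49-fold and 1.09-fold higher with dox. Ptprc, Cd3e, Cdh5, Col1a1, Col3a1 and Adipoq, defining markers of leukocytes, endothelium, fibroblasts and adipocytes, lay at the floor on every array. Not every marker of these lists did. The fibroblast gene Pdgfra read 4.24 and 5.15 in untreated Sca1+ and Sca1- cells and 4.12 and 4.45 with dox. The leukocyte gene Csf1r read 4.06 and 4.35 without dox and 4.79 and 4.46 with it. The fibroblast gene Dcn went from the floor to 9.41 and 8.42 with dox in Sca1+ and Sca1- cells, at least 68.0-fold and 34.2-fold higher. The macrophage gene Cd68 read 3.37 and 3.76 without dox and 6.16 on both dox arrays. In each of these lists, 1 of 3 analysed markers was thus 2-fold higher in both fractions, beside 5.29% of all genes. The summed linear level of the 7 fibroblast markers, whose rise was mainly Dcn, was 78.9 and 95.4 in untreated Sca1+ and Sca1- cells and 750 and 424 with dox. That of the 6 leukocyte markers was 67.0 and 74.1 without dox and 142 and 134 with it; the part of either in the dox differences was not tested. Between 44.8% and 48.0% of probe sets lay at the floor on each array, and a difference against a floor value is given as "at least".

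These enzymes handle the reactive carbonyl group. Aldehyde dehydrogenases oxidise aldehydes to acids with NAD or NADP, and the class that acts on retinaldehyde makes retinoic acid, a ligand of nuclear receptors. Aldehyde dehydrogenase activity is widely used to mark mammary progenitor cells. Aldo-keto and carbonyl reductases run the other way, reducing aldehydes, ketones, steroids and quinones with NADPH, and aldehyde oxidases are molybdenum-containing enzymes that use molecular oxygen.

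With dox, 8 of the 28 enzymes were at least 2-fold different in the same direction in the Sca1+ and Sca1- fractions. Akr1c18, Aox4 and Aldh1b1 were higher, and Cbr2, Aldh3a1, Akr1b10, Cbr3 and Aldh1a1 were lower. These are 3 of 28 higher (10.7%) and 5 of 28 lower (17.9%), beside 5.29% and 8.56% of all genes analysed. Aox4 and Aldh1b1 reached the level for analysis only on the dox arrays, and Aldh1a1 only on the untreated ones. With no expression filter the same 8 were found, among 41 enzymes. The 13 enzymes added by this lay at or next to the floor on all arrays and could not reach 2-fold. The share of all genes without the filter was not counted. In Sca1+ cells alone 5 were higher and 5 lower, beside 8.47% and 12.9% of all genes, and in Sca1- cells 3 were higher and 6 lower, beside 7.2% and 11.3%. The split in Sca1+ cells moved with the scaling: it was 4 higher and 8 lower with the arrays brought to a common median over all their probe sets, and 7 higher and 4 lower with centring on bright probe sets. Their median dox difference (log2) was 0.060 in the Sca1+ and 0.035 in the Sca1- fraction, beside 0.032 and 0.019 over all genes. Fewer cells of a type and less RNA per cell cannot be told apart in such bulk samples.

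**Figure D1:**
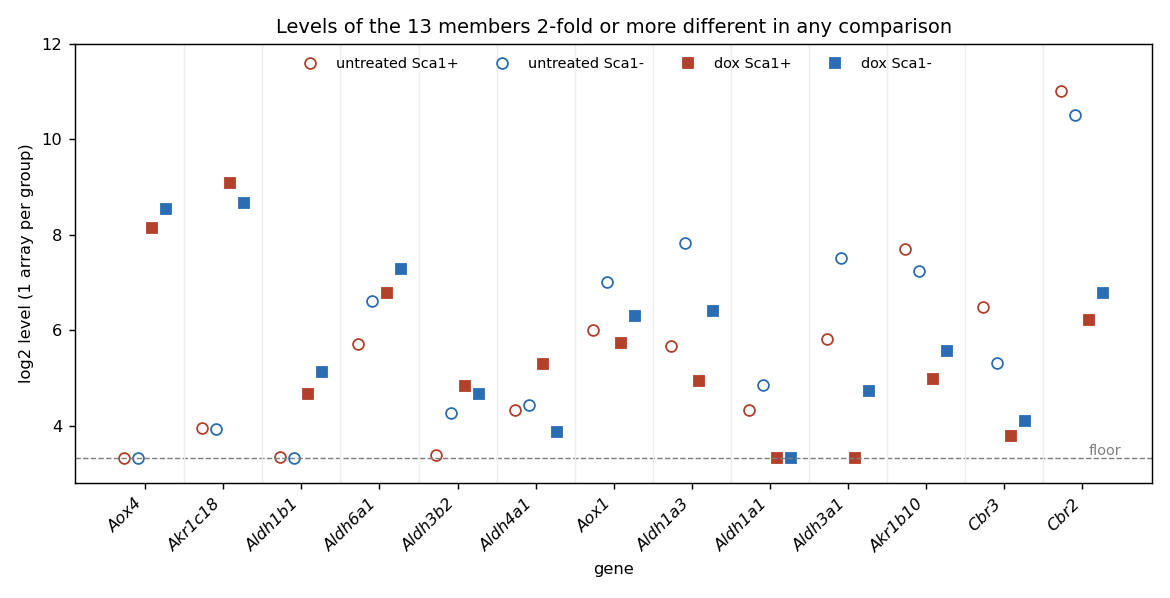
Levels (log2, vertical axis) of the 13 enzyme genes that were 2-fold or more different in any of the 4 comparisons, with 1 point for each array; open circles are untreated and filled squares dox-treated cells, red is Sca1+ and blue Sca1-, and the dashed line is the floor at 3.32. Aox4 and Akr1c18 stand at 8.15 or above on the dox arrays and at 3.95 or below on the untreated ones, and Cbr2 stands at 10.51 or above without dox and at 6.78 or below with it.

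Of 3 analysed genes of the retinaldehyde dehydrogenase class, 1, Aldh1a1, was 2-fold lower with dox in both fractions. Aldh1a3, which makes retinoic acid, read 5.67 in untreated Sca1+ cells, 7.84 in untreated Sca1- cells, 4.93 in dox Sca1+ cells and 6.40 in dox Sca1- cells. Each dox array was thus below its untreated partner, by 1.67-fold in Sca1+ and 2.71-fold in Sca1- cells. Aldh1a1, another enzyme of the same step and a progenitor marker in breast epithelium, read 4.32 and 4.87 in untreated Sca1+ and Sca1- cells and lay at the floor on both dox arrays, which is a decrease of at least 2.00-fold in the first fraction and 2.92-fold in the second. The Sca1+ value sits on the 2-fold line, and with centring on bright probe sets it was -0.96 (log2). Aldh1a7, a close relative of Aldh1a1 that lies beside it in the genome, read 4.43, 3.98, 3.82 and 3.32 in the same order and stayed under 2-fold. Aldh1a2, the third retinaldehyde dehydrogenase, was at the floor on all arrays, and Aldh8a1, a dehydrogenase of tryptophan breakdown, was at most 3.43.

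The mitochondrial acetaldehyde dehydrogenases differed from each other. Aldh1b1 read 3.35 and 3.32 without dox and 4.67 and 5.13 with it, higher by 2.49-fold (Sca1+) and by at least 3.50-fold (Sca1-). All 4 values lie near the floor, and with linear values under 32 set to 32 the differences were 0.00 and 0.13 (log2). Aldh2, the main enzyme of acetaldehyde clearance, read 8.51 and 9.05 in untreated Sca1+ and Sca1- cells and 8.54 and 8.77 with dox, and by this probe set differed by less than 2-fold in every comparison. A much dimmer Aldh2 probe set went from 4.36 to the floor with dox in Sca1+ cells, a difference of at most -1.04 (log2).

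Among the class that oxidises fatty and aromatic aldehydes, Aldh3a1 was the only one of 4 genes 2-fold different with dox in both fractions. This enzyme, abundant in cornea and known for the oxidation of aromatic and lipid-derived aldehydes, read 5.83 in untreated Sca1+, 7.51 in untreated Sca1-, 3.32 (the floor) in dox Sca1+ and 4.73 in dox Sca1- cells. The decrease with dox was at least 5.69-fold in the Sca1+ and 6.87-fold in the Sca1- fraction, and both dox arrays lay below both untreated ones. With linear values under 32 set to 32 the Sca1+ difference was -0.83 (log2), under 2-fold, and the Sca1- one -2.51. Aldh3a2, the microsomal fatty aldehyde dehydrogenase that lies beside Aldh3a1 in the genome, read 6.38, 6.41, 6.66 and 6.96 in that order and was not 2-fold different anywhere. Aldh3b2, which acts on lipid aldehydes, read 3.39 without and 4.84 with dox in Sca1+ cells, a 2.74-fold increase, and 4.28 and 4.67 in Sca1- cells, a 1.31-fold one. Its neighbour Aldh3b1 was above the floor only in untreated Sca1+ cells, at 4.23.

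The aldehyde dehydrogenases of amino acid and folate metabolism were mostly under 2-fold different. Aldh6a1, which acts in valine and thymine breakdown, read 5.73 and 6.61 in untreated Sca1+ and Sca1- cells and 6.79 and 7.29 with dox, so the dox arrays were higher by 2.09-fold (Sca1+) and 1.60-fold (Sca1-). The first of these was 0.87 (log2), under 2-fold, with arrays brought to that common median. Aldh1l2, the mitochondrial formyltetrahydrofolate dehydrogenase, read 9.40 and 9.07 without dox and 8.49 and 8.22 with it, which is 1.88-fold and 1.80-fold lower with dox. Its cytosolic relative Aldh1l1 reached 3.50 at most and was not analysed. Aldh18a1, the entry enzyme of proline synthesis, stayed between 10.09 and 10.43, Aldh7a1 of lysine breakdown between 8.18 and 8.48, Aldh9a1 of carnitine synthesis between 8.46 and 9.08, and Aldh5a1 of GABA breakdown between 5.13 and 5.62. Aldh16a1 lay between 5.45 and 6.37. Aldh4a1, which completes proline breakdown, had dox differences of opposite sign in the fractions: it read 4.33 and 5.31 without and with dox in Sca1+ cells and 4.44 and 3.87 in Sca1- cells.

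**Figure D2:**
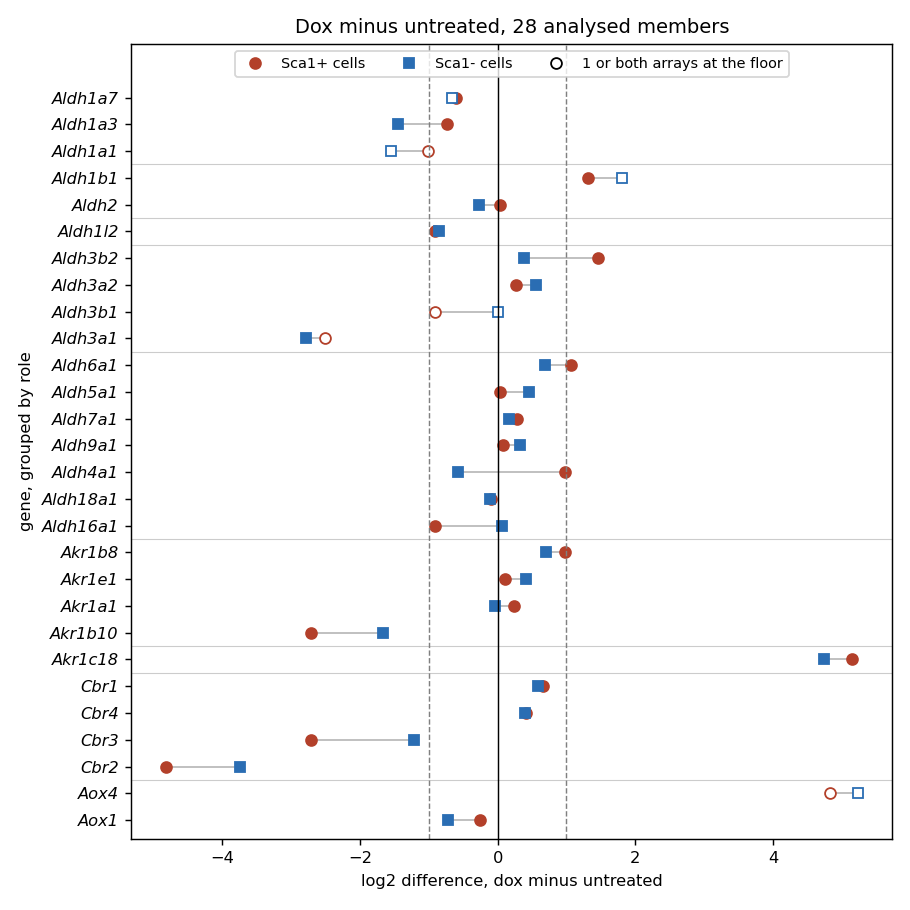
Log2 difference of dox minus untreated cells for the 28 analysed enzyme genes, grouped by role between the thin lines; red circles are Sca1+ and blue squares Sca1- cells, open symbols have 1 or both arrays at the floor, and dashed lines mark 2-fold. Most genes lie within the dashed lines, with Akr1c18 (5.14 and 4.73) and Aox4 (at least 4.83 and 5.23) far to the right and Cbr2 (-4.81 and -3.73) far to the left.

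Several of these genes lie in clusters of close relatives, with at most 2 other protein-coding genes between neighbours in the RefSeq gene order. Some members of a cluster had unlike dox differences, and how often this holds was not counted. The promoter sequences of the genes with the largest differences, and of neighbours with unlike values, are shown so that the letters can be set beside the values. Each is the 250 bases before the RefSeq start, on the gene's own strand (build GRCm38.p6), with matches to the 4 motifs searched in capitals. The motifs were TGACNNNGC (the core of the antioxidant response element bound by NRF2), GCGTG (the core bound by the aryl hydrocarbon receptor), TGANTCA (AP-1) and CACGTG (E-box), on both strands. No match of 1 motif overlapped a match of another in the sequences printed. Of all 32851 promoters in the RefSeq table, 10.2%, 28.2%, 6.75% and 6.02% held them in the same 250 bases. A promoter was listed for 34 of the 41 enzymes, 22 of them analysed, and of these 22 the motifs were present in 1, 7, 3 and 3, in that order. A match is a stretch of letters and not a measured binding site. Probe sequences were not used here, and how far a probe set also reads a close relative was not tested.

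Among the AKR1C genes, which encode hydroxysteroid dehydrogenases, 1 was above the floor. Akr1c18, which inactivates progesterone by reducing it, read 3.95 and 3.94 in untreated Sca1+ and Sca1- cells and 9.09 and 8.67 with dox, 35.3-fold and 26.6-fold higher. The other AKR1C genes with a named probe set, Akr1c6, Akr1c12, Akr1c13, Akr1c14, Akr1c19, Akr1c20 and Akr1c21, which share its cluster, were at the floor on all 4 arrays, as were the relatives Akr1cl and Akr1d1. Akr1e1, at the end of that cluster, lay between 5.10 and 5.71 and was not 2-fold different in any comparison. The Akr1c18 promoter, at chr13:4150647-4150896 (minus strand), held none of the 4 motifs.
Akr1c18: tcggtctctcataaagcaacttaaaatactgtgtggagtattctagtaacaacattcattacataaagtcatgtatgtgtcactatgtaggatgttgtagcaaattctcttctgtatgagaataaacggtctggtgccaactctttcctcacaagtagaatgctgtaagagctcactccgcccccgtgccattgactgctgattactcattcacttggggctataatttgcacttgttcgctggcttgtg

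Akr1b8 and Akr1b10, adjacent relatives of aldose reductase that reduce retinaldehyde and lipid aldehydes, had dox differences of opposite sign. Akr1b8 read 9.98 in untreated Sca1+, 9.90 in untreated Sca1-, 10.96 in dox Sca1+ and 10.60 in dox Sca1- cells, 1.97-fold and 1.63-fold higher with dox. Akr1b10 read 7.70, 7.24, 4.99 and 5.57 in the same order, 6.55-fold and 3.17-fold lower. The other Akr1b10 probe sets, which are dimmer, were also lower with dox in both fractions, with differences of -1.42 and -1.13 (log2) in Sca1+ and -1.25 and -1.29 in Sca1- cells. Akr1a1, the general aldehyde reductase, lay between 12.03 and 12.28 on all arrays. The Akr1b8 promoter, at chr6:34353896-34354145 (plus strand), held 1 match to GCGTG, and the Akr1b10 promoter, at chr6:34383997-34384246 (plus strand), held no match to any of the 4 motifs.
Akr1b8: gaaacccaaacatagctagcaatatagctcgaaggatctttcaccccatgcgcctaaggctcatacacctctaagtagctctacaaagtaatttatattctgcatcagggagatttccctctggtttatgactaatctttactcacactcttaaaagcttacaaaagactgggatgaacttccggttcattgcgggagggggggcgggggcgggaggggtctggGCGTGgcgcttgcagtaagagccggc
Akr1b10: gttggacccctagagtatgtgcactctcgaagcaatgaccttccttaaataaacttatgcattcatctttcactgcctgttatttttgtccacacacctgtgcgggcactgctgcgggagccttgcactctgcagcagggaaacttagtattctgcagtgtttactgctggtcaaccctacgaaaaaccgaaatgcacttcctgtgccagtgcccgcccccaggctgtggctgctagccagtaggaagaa

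Of the 28 enzymes, the carbonyl reductase gene Cbr2 had the largest decrease with dox in both fractions. It encodes a mitochondrial enzyme best known from lung, and read 11.02 in untreated Sca1+ and 10.51 in untreated Sca1- cells and 6.21 and 6.78 with dox, 28.1-fold and 13.3-fold lower. Cbr3 read 6.50 and 5.33 without dox and 3.79 and 4.11 with it, 6.55-fold and 2.32-fold lower, although the Sca1- difference was -0.33 (log2) with linear values under 32 set to 32. Cbr1, the cytosolic reductase of quinones and prostaglandins next to Cbr3 in the genome, read 7.11 and 7.09 without dox and 7.76 and 7.67 with it, differences of 0.65 and 0.59 (log2). Cbr4, a subunit of a mitochondrial fatty acid synthesis enzyme, lay between 8.10 and 8.52. The promoters of Cbr2, at chr11:120732022-120732271 (minus strand), and Cbr3, at chr16:93682969-93683218 (plus strand), held none of the motifs, and that of Cbr1, at chr16:93607587-93607836 (plus strand), held 2 matches to GCGTG.
Cbr2: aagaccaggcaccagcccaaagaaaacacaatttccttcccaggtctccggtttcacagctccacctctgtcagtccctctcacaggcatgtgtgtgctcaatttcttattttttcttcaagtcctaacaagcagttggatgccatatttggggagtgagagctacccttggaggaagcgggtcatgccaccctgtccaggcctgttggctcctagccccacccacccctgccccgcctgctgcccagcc
Cbr1: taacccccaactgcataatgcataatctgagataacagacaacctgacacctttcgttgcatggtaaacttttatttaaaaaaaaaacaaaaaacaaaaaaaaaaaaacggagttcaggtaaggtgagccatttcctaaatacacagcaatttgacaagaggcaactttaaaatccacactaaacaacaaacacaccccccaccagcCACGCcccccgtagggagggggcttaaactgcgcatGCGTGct
Cbr3: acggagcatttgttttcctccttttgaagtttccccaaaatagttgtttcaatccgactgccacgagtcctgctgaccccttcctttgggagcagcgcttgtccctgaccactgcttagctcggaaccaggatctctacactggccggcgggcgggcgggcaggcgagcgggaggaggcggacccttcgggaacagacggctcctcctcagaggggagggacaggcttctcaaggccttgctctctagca

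Among the 2 aldehyde oxidases analysed, Aox4 was far higher with dox and Aox1 was not; Aox2, which also lies beside Aox4, was not analysed here. Aox4, an aldehyde oxidase of skin and gland epithelia that oxidises retinaldehyde, was at the floor in both untreated fractions and read 8.15 in dox Sca1+ and 8.55 in dox Sca1- cells, an increase of at least 28.4-fold and 37.5-fold. Aox1, in the same cluster, read 6.001 in untreated Sca1+, 7.02 in untreated Sca1-, 5.74 in dox Sca1+ and 6.30 in dox Sca1- cells, 1.20-fold and 1.64-fold lower with dox, and Aox3, which lies between them, was at the floor on all arrays. The Aox4 promoter, at chr1:58210147-58210396 (plus strand), held an E-box match at positions -60 to -55 from the start and an AP-1 match at -48 to -42, and the Aox1 promoter, at chr1:58029719-58029968 (plus strand), an AP-1 match at -220 to -214 and a GCGTG match, on the other strand, at -137 to -133.
Aox4: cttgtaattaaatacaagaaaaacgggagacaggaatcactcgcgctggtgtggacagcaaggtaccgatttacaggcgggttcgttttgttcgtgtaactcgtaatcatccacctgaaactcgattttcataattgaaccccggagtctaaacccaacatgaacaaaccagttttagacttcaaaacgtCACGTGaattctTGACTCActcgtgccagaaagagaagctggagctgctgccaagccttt
Aox1: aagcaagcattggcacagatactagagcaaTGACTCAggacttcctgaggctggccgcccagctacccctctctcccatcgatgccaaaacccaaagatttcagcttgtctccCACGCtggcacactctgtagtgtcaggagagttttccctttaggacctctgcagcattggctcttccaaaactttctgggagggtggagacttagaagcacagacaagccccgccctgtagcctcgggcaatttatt

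Across the 28 enzymes the dox differences in the Sca1+ and Sca1- fractions, which share no array, had the same sign in 23 (82.1%), beside 78.3% of all genes analysed. Their Pearson correlation across these 28 genes was 0.94, beside 0.85 over all genes, and 0.815 across the 25 left without Akr1c18, Aox4 and Cbr2; genes are not independent replicates, and the arrays of a treatment may come from 1 culture. The size differed by 2-fold or more between the fractions for 5 enzymes. Aldh4a1 and Aldh3b2 had the higher dox difference in Sca1+ cells (2 of 28, beside 3.69% of all genes), with differences between the fractions of 1.55 and 1.07 (log2). Cbr3, Cbr2 and Akr1b10 had the lower dox difference in Sca1+ cells (3 of 28, beside 3.44%), at -1.50, -1.08 and -1.05. Akr1b10 rested on its brightest probe set: with the mean of its probe sets its value was -0.35. With linear values under 32 set to 32 Aldh4a1 was at 0.31, and with arrays brought to a common median over all their probe sets Aldh3b2 was at 0.84. The split of 2 and 3 was 1 and 5 with that centring and 1 and 3 after quantile normalization.

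**Figure D3:**
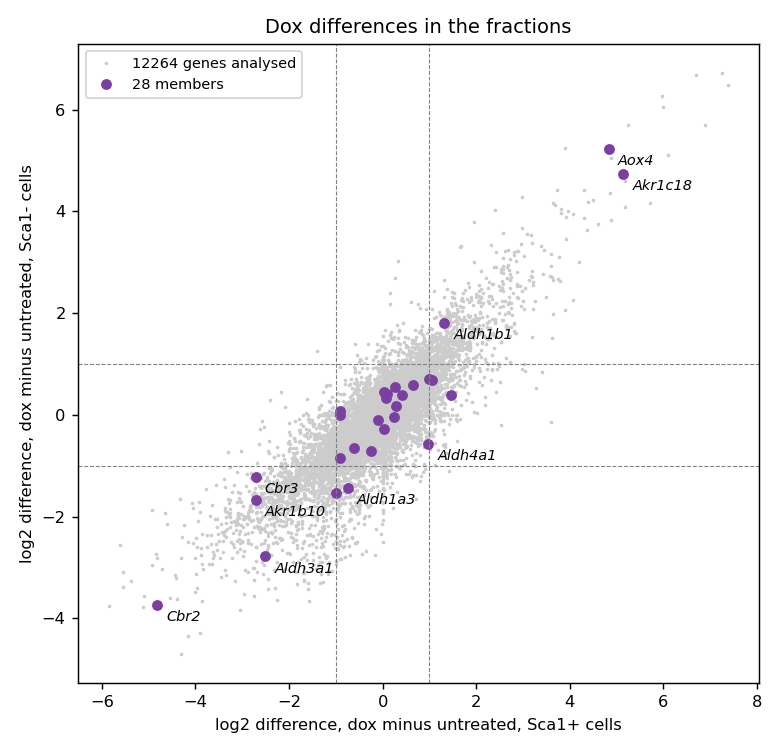
Log2 dox difference in Sca1+ cells (horizontal axis) against that in Sca1- cells (vertical axis) for the 12264 genes analysed (grey) and the 28 enzymes (purple), with dashed lines at 2-fold. Aox4 and Akr1c18 lie at the upper right and Cbr2 at the lower left of the cloud, and Aldh4a1 lies off the diagonal at 0.97 and -0.57.

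An additive limma fit over the 4 arrays, which treats the fractions of a treatment as separate samples although they may share a culture, placed 12 of the 28 enzymes under a Benjamini-Hochberg adjusted p of 0.05 for dox. It called 5 higher and 7 lower, beside 11.9% and 14.8% of all genes. Beyond the 8 named above, these were Akr1b8 and Aldh6a1 (higher) and Aldh1a3 and Aldh1l2 (lower). The error of the fit rests on how far the dox differences of the fractions disagree, pooled in part over genes, and not on replicates. Akr1c18 had a limma adjusted p of 0.0051, Aox4 one of 0.0051, Aldh3a1 one of 0.0069 and Cbr2 one of 0.0070. Both untreated Aox4 values were floor values, which show no spread. Aox4 and Aldh1b1 reached the level for analysis only on the dox arrays, and Aldh1a1 only on the untreated ones. These genes are among the 12, and their p-values take no account of that choice.

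The Sca1+ and Sca1- fractions differed in fewer of these enzymes. Without dox 1 was at least 2-fold higher in Sca1+ cells and 3 were lower, beside 3.07% and 3.33% of all genes; this split was 2 and 2 with the arrays brought to a common median over all their probe sets, and 2 and 3 after quantile normalization. With dox 1 was higher and 2 were lower, beside 2.52% and 2.98%. In the same direction both times, 0 were higher, beside 1.08%, and Aldh1a3 and Aldh3a1 were lower (2 of 28, beside 0.881%). The median Sca1+ minus Sca1- difference of the enzymes was 0.0036 (log2) without dox and -0.12 with it, beside -0.014 and -0.035 over all genes. In the limma fit no enzyme and 0 of the 12264 genes had an adjusted p under 0.05 for Sca1.

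Aldh1a3, with the levels given above, was 4.49-fold lower in Sca1+ than in Sca1- cells without dox and 2.76-fold lower with it. With the mean of its 3 probe sets, of which the other two lay at or near the floor, these differences were -0.82 and -0.49 (log2) and the dox difference in Sca1- cells -0.58. Aldh3a1 was 3.21-fold lower without dox and at least 2.66-fold lower with it, where the Sca1+ array was at the floor; with the floor at 32 the difference with dox was 0 (log2). Aox1 was 2.02-fold lower in Sca1+ cells without dox and 1.47-fold lower with it, and its first value was -0.79 (log2) with arrays brought to that common median. Cbr3 was 2.26-fold higher in Sca1+ cells without dox and 1.25-fold lower with it. Aldh4a1 was 2.72-fold higher in Sca1+ cells with dox and 1.07-fold lower without it, from levels of 3.87 to 5.31; under that higher floor the difference with dox was 0.31 (log2).

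Luminal markers moved with Aldh1a3 and Aldh3a1 between the fractions. Of 6 analysed luminal markers, 5 were at least 2-fold lower in Sca1+ cells without dox and 3 with dox, beside 3.33% and 2.98% of all genes. Their summed linear level was 3737 in untreated Sca1+ and 6862 in untreated Sca1- cells, and 2296 and 3765 with dox; Krt19 was at the floor on all arrays. Elf5, an alveolar progenitor factor, read 4.84 in untreated Sca1+, 7.02 in untreated Sca1-, 3.32 in dox Sca1+ and 5.02 in dox Sca1- cells, and Krt8, a luminal keratin, read 7.67, 9.36, 5.94 and 7.40. Of 5 basal markers, 1 was 2-fold higher in Sca1+ cells both times (1.08% of all genes were), Trp63 at 10.14 against 8.77 without dox and 9.70 against 8.63 with it. With dox, 3 of the 6 luminal and 2 of the 5 basal markers were 2-fold lower in both fractions, beside 8.56% of all genes. The part of these shifts in the enzyme differences was not tested.

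**Figure D4:**
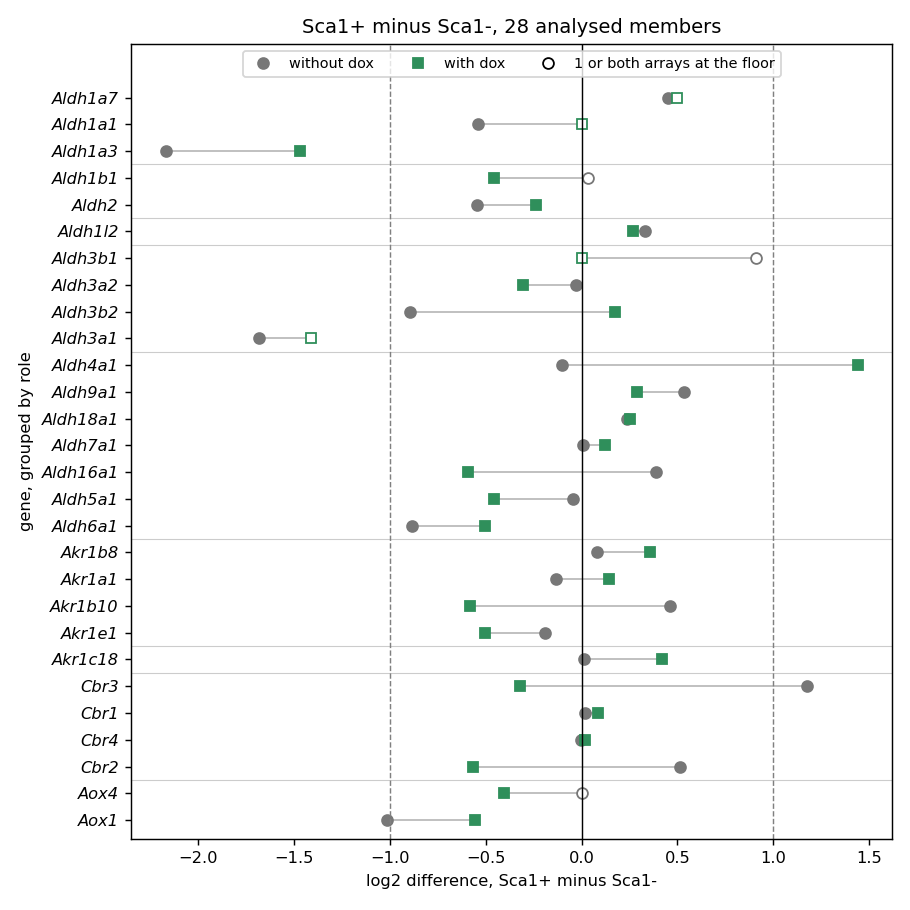
Log2 difference of Sca1+ minus Sca1- cells for the 28 analysed enzyme genes, grouped by role between the thin lines; grey circles are without and green squares with dox, open symbols have 1 or both arrays at the floor, and dashed lines mark 2-fold. Aldh1a3 (-2.17 and -1.47) and Aldh3a1 (-1.68 and at most -1.41) lie left of the 2-fold line both times.

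Other genes of retinoic acid handling also differed with dox. Of 21 analysed genes of the retinoid list outside these enzymes, 2 genes were higher and 4 lower in both fractions, past 2-fold each time, beside 5.29% and 8.56% of all genes, and the list's median (log2) was 0.053 (Sca1+) and 0.13 (Sca1-). Crabp2, which carries retinoic acid to its receptors, read 10.83 and 9.83 without dox and 6.11 and 6.80 with it, 26.4-fold and 8.13-fold lower. Cyp26b1, which degrades retinoic acid, read 9.71 and 9.69 without dox and 5.47 and 7.53 with it, 19.0-fold and 4.46-fold lower. Rdh10, which supplies retinaldehyde, was 9.76-fold lower in Sca1+ and 3.33-fold lower in Sca1- cells, and the receptor gene Rxra 4.75-fold and 2.43-fold lower. Crabp1, another retinoic acid carrier, went from the floor to 6.49 and 6.05, an increase of at least 8.98-fold and 6.64-fold, and Adh7, a retinol-oxidising alcohol dehydrogenase, was 2.34-fold and 2.42-fold higher.

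Genes of the NRF2 system, which controls several reductases of quinones and aldehydes, were lower where they differed in both fractions. Of 25 analysed, 0 were higher and 5 lower in both fractions, beside the same 5.29% and 8.56% of all genes, with median differences (log2) of -0.28 and -0.20. The factor gene Nfe2l2 itself read 9.47 and 9.36 without dox and 7.34 and 7.76 with it. Ephx1, the microsomal epoxide hydrolase, was 8.79-fold lower in Sca1+ and 4.78-fold lower in Sca1- cells, Me1, an NADPH-producing enzyme, 7.45-fold and 4.44-fold, and the quinone reductase Nqo1 4.03-fold and 3.67-fold. Srxn1, the fifth, was 5.10-fold and 2.48-fold lower. In Sca1+ cells alone, 2 of the 25 were higher and 6 lower, beside 8.47% and 12.9% of all genes. In Sca1- cells 0 were higher and 5 lower, beside 7.2% and 11.3%. Gsta4, which conjugates lipid aldehydes to glutathione, read 8.18 in untreated Sca1+ cells and between 10.09 and 10.19 on the other arrays. Gsta2 went from the floor to 5.13 and 4.29 with dox in Sca1+ and Sca1- cells, at least 3.51-fold and 1.96-fold higher.

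In each of the remaining lists, at most 2 genes were 2-fold different in both fractions, to be read beside those same shares of all genes. Of 7 genes of molybdenum cofactor synthesis and other molybdenum enzymes, 2 were lower in both fractions while Aox4 was higher: Mocos, which activates the cofactor of aldehyde oxidases, was 3.41-fold and 2.40-fold lower, and Xdh, xanthine dehydrogenase, 6.04-fold and 2.88-fold lower. Of 9 folate one-carbon genes, 2 were lower and 0 higher, with medians of -0.58 and -0.75 (log2); Mthfd1l was 10.7-fold and 5.59-fold lower, and Tyms by at least 2.50-fold and 2.76-fold. Of 13 other carbonyl and aldo-keto reductases, 1 was lower in both fractions, the xylulose reductase gene Dcxr at 4.81-fold and 2.79-fold. Among 11 steroid enzymes and receptors only Hsd3b7 was 2-fold different in both fractions, 4.40-fold and 3.62-fold lower; the progesterone receptor gene Pgr read 3.72 and 4.39 without dox and was at the floor with it. Of 16 genes of proline, branched-chain amino acid and lysine breakdown, Aass, the entry enzyme of lysine breakdown, was higher in both, 3.64-fold and 2.47-fold. None of 4 analysed genes of the aryl hydrocarbon receptor system was 2-fold different in both fractions. Cyp1a1, a classic target of the receptor, was at the floor on all arrays. Cyp1b1, in the same list, read 9.02 and 10.87 in untreated Sca1+ and Sca1- cells and 10.33 and 10.49 with dox. It was 2.47-fold higher with dox in Sca1+ and 1.30-fold lower in Sca1- cells. The receptor gene Ahr was 1.17-fold lower with dox in Sca1+ and 2.00-fold lower in Sca1- cells. Without dox, Cyp1b1 and Ahr were 3.60-fold and 2.12-fold lower in Sca1+ than in Sca1- cells.

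**Figure D5:**
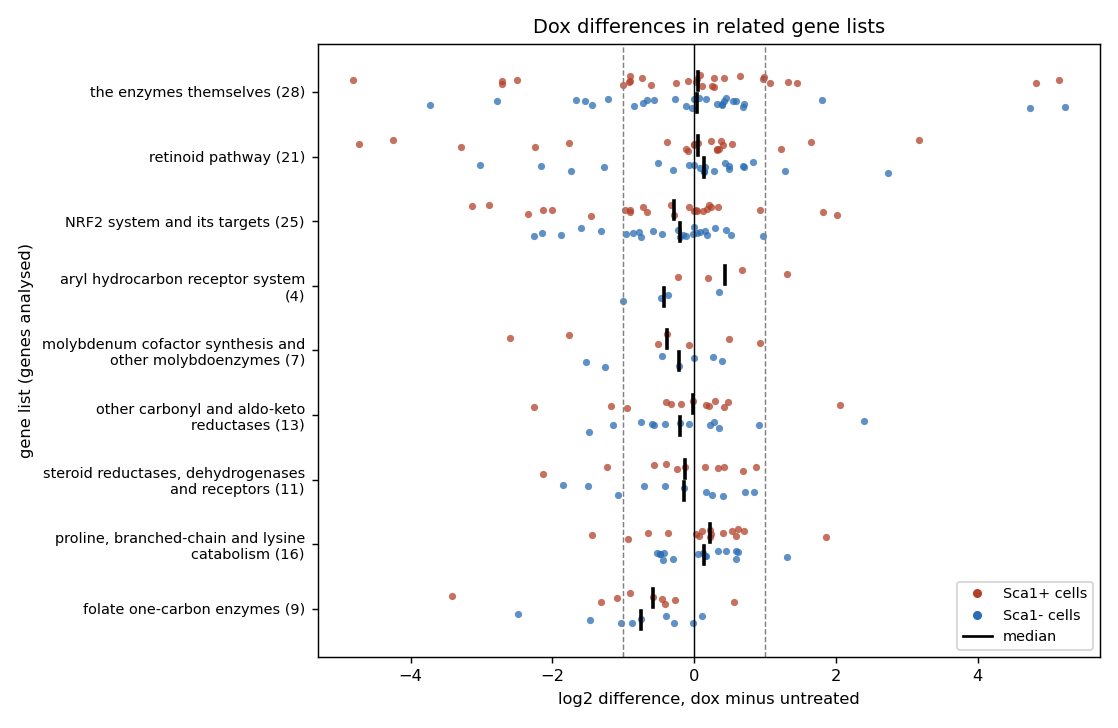
Log2 dox difference of each analysed gene (points) in Sca1+ (red) and Sca1- cells (blue) for the 28 enzymes and the 8 related gene lists, with the number of genes in brackets, black bars at the medians and dashed lines at 2-fold. The medians of all lists lie within the 2-fold lines, and the lowest retinoid gene, Crabp2, is at -4.72 in Sca1+ cells.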

How the data were processed

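Total RNA of sorted cells was labelled by an Affymetrix protocol and hybridised to 1 array per group, per the labels' protocols. The authors deposited a table of log2 levels for 45101 probe sets; how they were summarized and scaled, and with which software, was not given in the sources used here. The lowest value on every array is log2 of 10, as a floor would give. Of the 35890 probe sets in the platform annotation, 34958 have 1 gene symbol and 932 several, and only the former were used. A gene with several probe sets was read from the 1 with the highest mean over the 4 arrays. All 41 symbols match the RefSeq gene table. Differences of log2 levels were counted at 2-fold, and every member was accounted for. Genes of other lists were named where 2-fold different in both fractions, up to 4 by the smaller difference. The others named (Rxra, Adh7, Srxn1, Gsta2, Gsta4, Pgr, Ahr, Cyp1a1, Cyp1b1) were chosen after their values were seen. Alternatives tried were other centring, quantile normalization, other filters, floors and fold thresholds, the mean of a gene's probe sets and an additive fit (limma 3.58.1, R 4.3.3). The counting and the fit were run on simulated data with the same dox change in both fractions and independent noise of the same size for all genes. Such data hold no shared culture and no noise that depends on level, so the run does not test the fit under those. Members, lists and tests were chosen with earlier results of these data known.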

Additional observations from a re-analysis of the deposited data

Results flagged for a closer look

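Aldh4a1, which completes proline breakdown, was higher with dox in Sca1+ cells (4.33 to 5.31) and lower in Sca1- cells (4.44 to 3.87), and the dox differences of the fractions were 1.55 (log2) apart. It was the only analysed enzyme of the 28 with opposite directions and a gap of 1 or more. Neither dox difference reached 2-fold (0.97 and -0.57), and with linear values under 32 set to 32 the gap was 0.31. The difference was not tested, since each group has 1 array.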

How the results depend on the processing

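Of 232 values of the 31 named enzyme differences under other settings, 214 stayed on the same side of 2-fold, 18 fell under it and 0 reversed. Many of these could not move. Dropping the filter (31 values), asking for a linear level of 100 (19) and leaving out probe sets with x, s or a in their ending (31) changed none of them. A difference whose enzyme failed a filter gave no value and was not counted as lost. Counts moved most with the threshold and the floor, as fewer or more genes can pass. Of the 28 enzymes, 18 reached a linear level of 100 and 24 passed with the floor at 32. Counts under those settings are out of these smaller numbers. The share of all genes at the other settings was not counted. With dox in Sca1+ cells, 10 enzymes were 2-fold different, 18 at 1.5-fold, 6 at 3-fold, 6 among genes reaching a linear level of 100, and 6 with linear values under 32 set to 32. In Sca1- cells 9 became 15 at 1.5-fold. In both fractions 8 became 14 at 1.5-fold, 5 at 3-fold, 5 among genes reaching 100, and 4 with the floor at 32. Between Sca1+ and Sca1- cells, 4 without dox became 7 at 1.5-fold and 2 at 3-fold, and 3 with dox became 0 at 3-fold and 1 with the floor at 32. The 2 that held both times became 1 with the mean of a gene's probe sets (Aldh1a3 then missed it), 1 with the floor at 32, 0 at 3-fold and 0 in the limma fit. The median dox difference in Sca1+ cells was -0.13 with arrays centred on all probe sets, which moved the median of all genes by -0.19, and 0.16 among genes reaching 100; the Sca1 median without dox was 0.23 with that centring, which moved all genes by 0.23, and the one with dox was 0 with no expression filter. The settings were applied to the gap between the fractions after the data were seen: the 5 enzymes became 8 at 1.5-fold, 0 at 3-fold and 2 among genes reaching 100. The labels give no replicate numbers to pair by; the limma fit takes dox within the fractions. Levels near the floor limit Aldh1a1, Aldh1b1, Aldh3a1, Aldh3b1, Aldh3b2, Aldh4a1 and Cbr3, among others.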

Other observations

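Probe sets of the same gene did not always give the same picture. Aldh1a3 had 3 probe sets; the brightest carries the differences reported, a second was above the floor only in untreated Sca1- cells, at 3.62, and the other was at the floor on all arrays. The 5 probe sets of Aldh2, of which 1 was at the floor on all arrays, had dox differences from -1.04 to 0.46 (log2) in Sca1+ cells. For Aldh18a1, the 5 probe sets had dox differences from -0.16 to 0.78 (log2) in Sca1+ cells and from -0.11 to 0.23 in Sca1- cells. For Aldh16a1, the brighter probe set gave -0.91 and 0.07 and the other -0.04 and -0.41. The 4 probe sets of Akr1a1 gave 0.17 to 0.24 in Sca1+ cells. The probe set shared by Aldh3b2 and Aldh3b3 that was above the floor anywhere was so on the Sca1+ arrays, at 3.51 without and 3.48 with dox.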
